A study of Mus musculus with 44 samples.

Results

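Voltage-gated calcium channels are built from a pore-forming α1 subunit, an intracellular β subunit and a largely extracellular α2δ subunit, and calcium entering through them triggers transmitter release and shapes firing. The 10 subunit genes described here were chosen by name as rows of the deposited expression tables: 3 α2δ genes (Cacna2d1, Cacna2d2, Cacna2d3), 4 pore genes (Cacna1a, Cacna1b, Cacna1c, Cacna1h) and 3 β genes (Cacnb1, Cacnb3, Cacnb4). All 10 were found, among 45882 genes in each of the satellite glia tables and 12170 in the neuron table. Cacna2d1 encodes the α2δ protein that the analgesic drugs gabapentin and pregabalin bind. In sensory neurons α2δ proteins carry channels towards the terminal, and a rise of Cacna2d1 in injured sensory neurons is a textbook response to peripheral nerve injury in rats and mice.

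The series holds 44 bulk RNA-seq libraries from C57BL/6 mice, in 12 groups. Naive mice of 9 weeks gave 4 libraries of satellite glial cells obtained by sorting (SGCs, which envelop neuronal cell bodies in the ganglion) and 4 of complete dorsal root ganglia (DRGs) that were dissociated and fixed but not sorted. SGCs were also sorted 3 and 14 days after a full sciatic nerve ligation or a sham operation, 4 libraries for each operation and time, from mice of 9 to 11 weeks. Neurons were isolated with magnetic beads 8 days after a partial ligation or a sham operation, with 3 libraries for each operation and sex. Another 4 neuron libraries came from the ligated side and 4 from the opposite side of ligated mice, with no sex given. The mice behind all neuron libraries were also of 9 to 11 weeks. The glia were paraformaldehyde-fixed and sorted by antibody and a DNA dye from L3 and L4 ganglia, and the neurons were unfixed and from L3 to L5 ganglia. No label names the animal behind a library, so p-values measure the spread between libraries, which may in part be technical.

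Values are FPKM, that is, fragments corrected for transcript length and for the number of mapped fragments. Levels of different genes can be compared on this scale as listed, although the zeros listed for Cacnb1 in SGCs do not show absence. The 3 tables (naive, SGCs after surgery, neurons) were scaled separately and levels are compared only within a table. Read totals per library are unknown, and from 10225 to 13173 genes reached 1 FPKM in a library. Of the 7 satellite glia markers 7 were higher in naive SGCs than in DRGs, beside 16.9% of all genes tested. The marker lists were chosen with earlier results of these data known, so this count is no independent check of the sort. Endothelial markers were enriched too, as 4 of 6 were higher, with sums of 80.2 to 175 FPKM in naive SGCs and 21.7 to 69.8 FPKM in DRGs. Neuronal RNA was not removed completely: the 11 listed of 12 neuron markers summed to 108 to 285 FPKM in naive SGC libraries and to 2381 to 4200 FPKM in DRG libraries. Isolated neurons carried 6807 to 10140 FPKM of these markers, and also 725 to 2845 FPKM of the 4 listed of 6 myelin markers.

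The α2δ genes lie on separate chromosomes, and their promoters are shown because Cacna2d1, the drug target, had the largest estimate of the subunits after ligation in glia while the estimates of the other two were below 0. Each run spans 250 bases before to 50 bases after the start of transcription, from RefSeq on GRCm38.p6, 5′ to 3′ on the gene's strand, with GC boxes (GGGCGG on either strand) in capitals. They are Cacna2d1 at chr5:15934441-15934740 on the plus strand, Cacna2d2 at chr9:107399630-107399929 on the plus strand and Cacna2d3 at chr14:29721815-29722114 on the minus strand.
Cacna2d1: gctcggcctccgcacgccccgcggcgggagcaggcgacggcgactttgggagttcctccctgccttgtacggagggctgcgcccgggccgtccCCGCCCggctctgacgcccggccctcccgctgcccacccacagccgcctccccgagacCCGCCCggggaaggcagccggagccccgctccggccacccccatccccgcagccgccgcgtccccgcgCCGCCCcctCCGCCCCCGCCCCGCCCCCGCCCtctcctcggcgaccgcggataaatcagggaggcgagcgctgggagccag
Cacna2d2: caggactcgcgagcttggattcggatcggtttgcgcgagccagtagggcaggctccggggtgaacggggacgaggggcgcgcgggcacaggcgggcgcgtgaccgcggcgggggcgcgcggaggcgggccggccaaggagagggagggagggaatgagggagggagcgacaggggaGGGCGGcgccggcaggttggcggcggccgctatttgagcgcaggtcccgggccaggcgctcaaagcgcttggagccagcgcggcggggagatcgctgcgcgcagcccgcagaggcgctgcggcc
Cacna2d3: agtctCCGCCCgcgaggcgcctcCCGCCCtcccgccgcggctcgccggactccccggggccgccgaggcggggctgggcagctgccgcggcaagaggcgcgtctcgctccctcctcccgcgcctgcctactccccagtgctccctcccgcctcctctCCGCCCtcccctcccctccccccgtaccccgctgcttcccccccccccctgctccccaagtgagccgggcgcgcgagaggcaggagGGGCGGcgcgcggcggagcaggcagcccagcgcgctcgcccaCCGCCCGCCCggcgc
The Cacna2d1 window is 80.0% G and C and holds 7 GC boxes, some of which overlap. The Cacna2d2 window is 75.7% G and C with 1 GC box, and the Cacna2d3 window 81.3% with 6. RefSeq windows were found for 8 of the 10 genes, 14 windows in all, and 9 of these held a GC box, against 35.7% of 32851 promoters. None of the 14 held TGACGTCA, the cyclic AMP response element, TGANTCA, the AP-1 site, or TATAAA, the TATA box, on either strand. These letters occur in 1.79%, 7.81% and 13.6% of all promoters in that order. A match or its absence describes the letters in the window only.

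Naive SGCs were first compared with whole ganglia. Every channel subunit that could be tested was lower in the sorted glia. Cacna2d1 (ENSMUSG00000040118, chromosome 5, 15934691 to 16374511, GRCm38) had 1.73, 2.80, 2.59 and 1.44 FPKM in naive SGCs, against 11.0, 13.8, 11.9 and 8.98 FPKM in DRGs. All 4 SGC libraries lay below all 4 DRG libraries. Its difference, SGC minus DRG on the log2(FPKM + 1) scale used throughout, was −1.99 ± 0.20 (SE; limma adjusted p = 0.000107). This scale understates differences of genes with low FPKM, and in bulk samples fewer neurons and less RNA per cell cannot be told apart.

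Of the 10 subunits, 8 passed the filter of at least 1 FPKM in 4 libraries, and all 8 were lower in SGCs (adjusted p under 0.05). Over all 12907 genes tested, 27.9% were lower and 16.9% higher, 44.9% in either direction. The median difference was −2.08 for the 8 subunits and −0.12 for all genes. With quantile normalization the median of all genes moved to 0.16 and the split of called genes turned round, with 3701 higher and 2691 lower genes in place of 2184 higher and 3605 lower, while 8 subunits were again lower.

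Among the other α2δ genes, Cacna2d2 averaged 0.235 ± 0.296 FPKM in SGCs and 2.63 ± 0.274 FPKM in DRGs (SD, n = 4 each). Cacna2d3, the α2δ isoform linked to heat nociception in flies and mice, averaged 0.323 ± 0.458 FPKM in SGCs and 5.82 ± 1.24 FPKM in DRGs. Their differences were −1.58 and −2.40. In naive glia Cacna2d1 was thus the only α2δ gene at or above 1 FPKM in all 4 libraries, while the other two stayed under 1 FPKM in all 4.

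Of the pore genes, Cacna1a, which encodes the P/Q-type channel of fast synapses, had the smallest difference. It had 5.20, 2.88, 2.31 and 4.34 FPKM in SGCs, against 11.1, 8.26, 13.3 and 11.7 FPKM in DRGs, a difference of −1.39 ± 0.23 (SE; limma adjusted p = 0.00148). It was the subunit with the highest mean in naive SGCs, 3.68 ± 1.32 FPKM (SD, n = 4), and its range there, 2.31 to 5.20 FPKM, overlapped that of the next, Cacna2d1. Cacna1b, the N-type channel that ω-conotoxin blocks in pain relief, averaged 0.680 ± 0.551 FPKM in SGCs and 6.30 ± 0.954 FPKM in DRGs, a difference of −2.17. Cacna1h, a low-voltage-activated T-type channel, averaged 0.390 ± 0.391 FPKM in SGCs and 4.10 ± 0.595 FPKM in DRGs, a difference of −1.91. Cacna1c, the L-type channel of heart and vessel, was not tested: it had 0.392 to 0.707 FPKM in SGCs and 0.796 to 1.21 FPKM in DRGs, without overlap.

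The β subunits set how many channels reach the membrane. Cacnb3 had 1.29, 2.07, 0.363 and 1.46 FPKM in SGCs, against 19.3, 17.2, 17.2 and 17.2 FPKM in DRGs. This was the largest difference of the 8 subunits, −3.09 ± 0.24 (SE; limma adjusted p = 3.27e-05). Cacnb4 averaged 1.44 ± 0.885 FPKM in SGCs and 11.5 ± 2.16 FPKM in DRGs, a difference of −2.41. In DRGs Cacnb3 led the 10 genes, and the ranges of Cacnb4, Cacna2d1 and Cacna1a, at means of 11.5, 11.4 and 11.1 FPKM, overlapped. Cacnb1 was listed at exactly 0 in all 24 SGC and DRG libraries. In the authors' deposited tables, however, it had a mean normalized count of 35.4 over the SGC libraries at 3 days and of 38.5 at 14 days, so its listed zeros do not show absence.

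Most other genes of the pathway that were tested were lower in SGCs as well. Over all genes tested in this comparison 27.9% were lower and 16.9% higher. All 9 tested genes of the release machinery that calcium entry acts on were lower in SGCs (median −3.04), among them Cplx1 (−5.13), Snap25 (−4.68), Syt1, the calcium sensor of release (−3.45), Rims1, which tethers channels at the active zone (−3.04), and Vamp2 (−1.32). Of 13 tested channel regulators and partners, 8 were lower and 1 higher, and the lower ones included Stac2 (−2.61), Calm2 (−2.39), Cabp1 (−1.69), Stac (−1.68) and Usp5 (−1.57). The higher one, named after its value was seen, was Fmr1 (0.61), whose protein binds N-type channels. Of the 16 other subunit genes 3 were tested. Cacng5 (−1.64) and Cacng2 (−1.40) were lower in SGCs, and Cacng4 was higher by 1.23 ± 0.21 (SE; limma adjusted p = 0.00148). Cacng4 encodes a γ-like subunit best known for steering AMPA receptors, and it had 18.7, 29.9, 25.6 and 28.7 FPKM in SGCs, against 10.2, 7.66, 9.97 and 13.8 FPKM in DRGs.

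**Figure D1:**
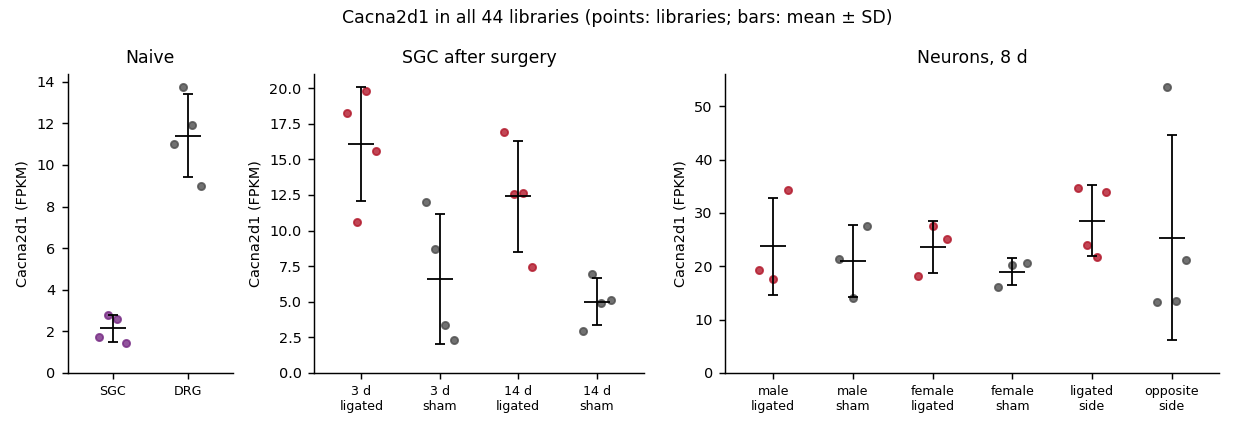
Cacna2d1 in FPKM (y axes from 0, a separate scale for each table) in every library of the 12 groups; points are libraries, red after ligation on the ligated side, purple naive SGCs and grey the groups they are set against, and bars are mean ± SD (n = 4, or 3 for the sexed neuron groups). Naive SGCs lie at 1.44 to 2.80 FPKM below the DRGs, both ligated SGC groups average above their shams, and each ligated neuron group overlaps the group it is set against.

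After ligation Cacna2d1 had the largest estimate of the 9 subunits tested in SGCs, at both times, although it did not pass the test across all genes. At 3 days it had 18.2, 10.6, 19.8 and 15.6 FPKM in ligated SGCs, against 12.02, 8.71, 3.33 and 2.33 FPKM in sham SGCs. Of the 4 ligated libraries 3 lay above every sham library, and the lowest ligated library lay below the highest sham library. The difference, ligated minus sham, was 1.35 ± 0.39 (SE), with a 95% confidence interval of 0.51 to 2.19 (limma adjusted p = 0.314). It ranked 167th by p among 13924 genes.

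At 14 days Cacna2d1 had 16.9, 12.6, 12.6 and 7.47 FPKM in ligated SGCs, against 2.90, 6.94, 4.92 and 5.13 FPKM in sham SGCs. The groups did not overlap. The difference was 1.16 ± 0.39 (SE), with a 95% confidence interval of 0.32 to 2.00 (limma adjusted p = 0.839). The authors' deposited table, which rests on counts, gave Cacna2d1 a log2 fold change of 1.36 at 14 days with an adjusted p of 0.000346, rank 23 of 19185 genes. At 3 days the authors' deposited table gave 1.27 with an adjusted p of 0.223. The deposited test and the test used here differ in the values tested, the tool, the filter and the libraries fitted together, and which of these sets the call at 14 days was not tested. With only the groups compared in the fit, the limma adjusted p at 14 days was 0.501.

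The ligation effect on Cacna2d1 at 14 days minus that at 3 days was −0.19 ± 0.56 (SE; 95% confidence interval −1.38 to 0.998; limma adjusted p = 0.9995). Ordered by mean, Cacna2d1 stood at 16.1 ± 4.03 FPKM in ligated SGCs at 3 days, 12.4 ± 3.87 FPKM in ligated SGCs at 14 days, 6.60 ± 4.57 FPKM in sham SGCs at 3 days and 4.98 ± 1.65 FPKM in sham SGCs at 14 days (SD, n = 4 each). Each neighbouring pair in that order overlapped. In all 4 groups it had the highest mean of the 10 subunits.

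None of the 9 subunits tested in SGCs passed at 3 days, when 0.0646% of 13924 genes were called, nor at 14 days, when 0.00718% were. At an unadjusted limma p under 0.05 there was 1 subunit at each time, Cacna2d1, beside 1269 of all 13924 genes at 3 days and 718 at 14 days. The authors' deposited tables called 0 subunits at 3 days, when they called 1.01% of 17662 genes, and 1 at 14 days, when they called 1.05% of 19185. The median difference of the 9 was −0.14 at 3 days and 0.06 at 14 days, against −0.01 and −0.02 over all genes. The difference between the times passed for 0 subunits by limma, with 0 at an unadjusted p under 0.05, against 0.00718% of all genes, and the authors' tables hold no such comparison.

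**Figure D2:**
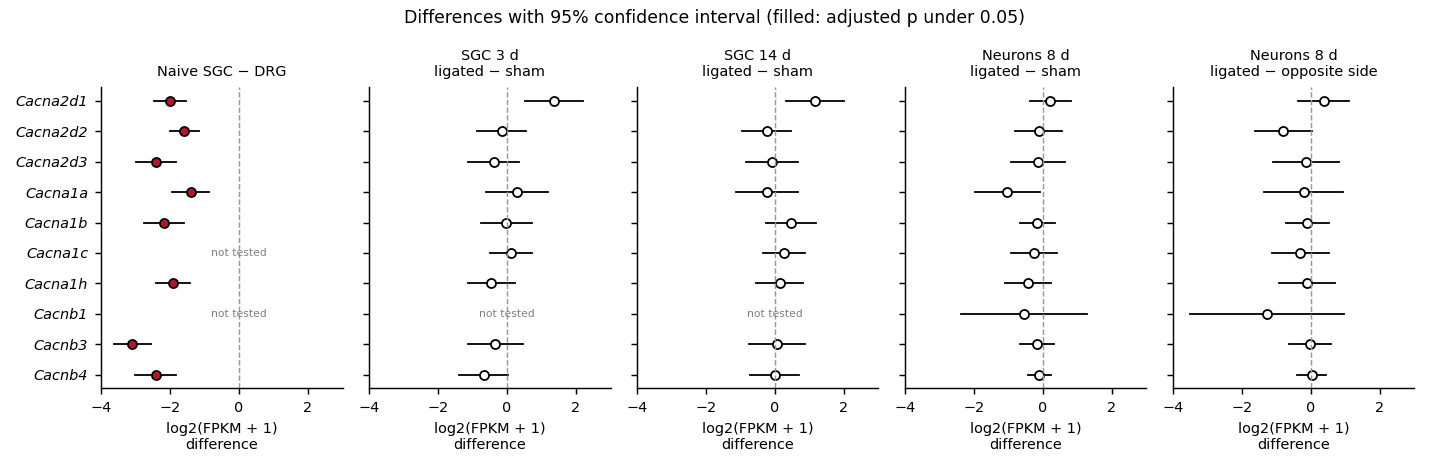
Difference in log2(FPKM + 1), first group minus second, for the 10 subunits in 5 comparisons; points are estimates, lines 95% confidence intervals, and filled points have a limma adjusted p under 0.05. Filled points occur in the naive comparison alone, and Cacna2d1 is the subunit whose interval lies above 0 in SGCs at 3 and 14 days.

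The estimates of the other α2δ genes lay below 0 at both times and none passed the test. Cacna2d2 averaged 0.983 ± 1.03 FPKM in ligated and 1.06 ± 0.661 FPKM in sham SGCs at 3 days, and 0.620 ± 0.417 FPKM in ligated and 0.867 ± 0.163 FPKM in sham SGCs at 14 days (SD, n = 4 each). Its differences were −0.14 (95% confidence interval −0.85 to 0.57) and −0.23 (−0.94 to 0.48). Cacna2d3 averaged 0.813 ± 0.989 FPKM in ligated and 1.30 ± 0.886 FPKM in sham SGCs at 3 days, a difference of −0.39. At 14 days it was at 0.332 ± 0.153 FPKM in ligated and 0.433 ± 0.342 FPKM in sham SGCs, a difference of −0.08.

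None of the pore genes passed in sorted glia. Cacna1a had 1.24, 7.12, 5.70 and 8.14 FPKM in ligated SGCs, against 6.35, 3.06, 4.12 and 2.18 FPKM in sham SGCs at 3 days, a difference of 0.30 with overlapping groups. At 14 days its difference was −0.23, from 2.15 to 5.60 FPKM in ligated and 2.78 to 6.33 FPKM in sham SGCs. Cacna1b averaged 2.19 ± 1.26 FPKM in ligated and 1.18 ± 0.247 FPKM in sham SGCs at 14 days, a difference of 0.47 (95% confidence interval −0.26 to 1.20). At 3 days its difference was −0.02. The differences of Cacna1c were 0.11 at 3 days and 0.26 at 14 days, and those of Cacna1h were −0.45 and 0.13, all with overlapping groups.

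Of the β genes, Cacnb4 had 0.704, 1.16, 0.793 and 2.98 FPKM in ligated SGCs, against 5.44, 2.66, 1.81 and 1.56 FPKM in sham SGCs at 3 days. This difference of −0.67 ± 0.33 (SE; limma adjusted p = 0.575) was the largest below 0 among the subunits, and 1 ligated library lay above 3 of the sham libraries. At 14 days the difference of Cacnb4 was −0.003. Cacnb3 averaged 3.18 ± 1.60 FPKM in ligated and 4.30 ± 2.12 FPKM in sham SGCs at 3 days, and 3.95 ± 1.89 FPKM in ligated and 3.63 ± 1.17 FPKM in sham SGCs at 14 days, differences of −0.33 and 0.06. The authors' deposited table gave Cacnb1 a log2 fold change of −2.35 at 3 days with an adjusted p of 0.223, and of 0.34 at 14 days with an adjusted p of 0.98.

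**Figure D3:**
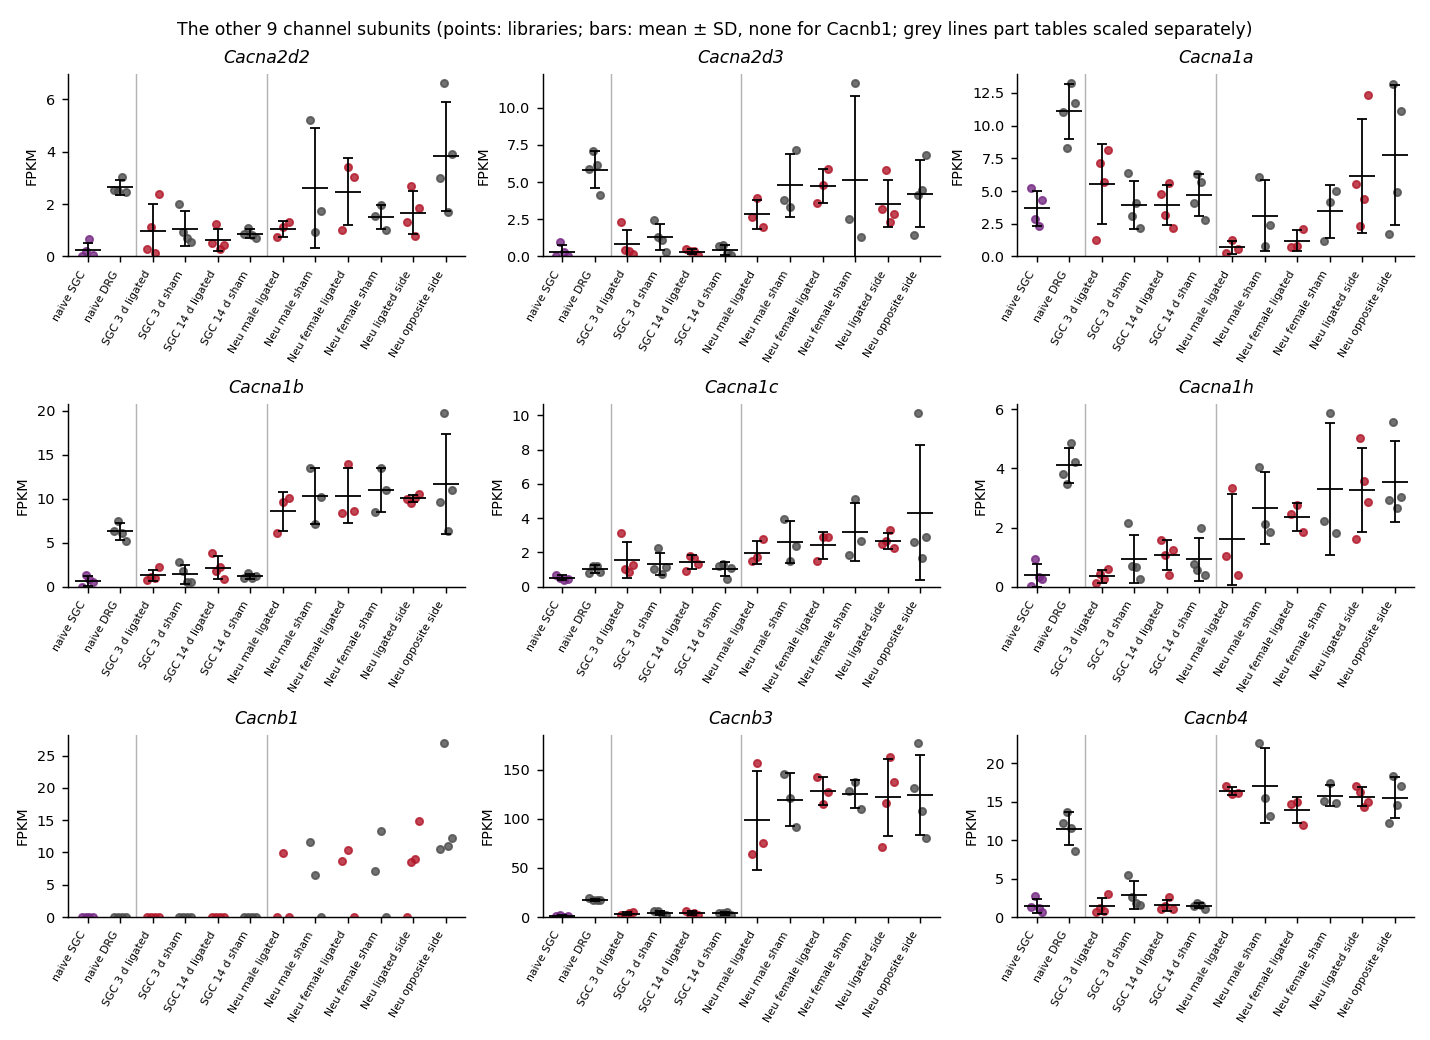
The other 9 subunits in FPKM (y axes from 0) in all 44 libraries; points are libraries, coloured red after ligation on the ligated side, purple for naive SGCs and grey for the groups they are set against, bars are mean ± SD and grey lines part the 3 separately scaled tables. Within the naive table Cacnb3 lies at 0.363 to 2.07 FPKM in SGCs and at 17.2 to 19.3 FPKM in DRGs, and Cacnb1 is listed at 0 in all SGC and DRG libraries.

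RNA of other cells also varied between the SGC libraries. The 11 listed neuron markers summed to 402 to 677 FPKM in ligated and 177 to 764 FPKM in sham SGCs at 3 days, and to 260 to 726 FPKM in ligated and 213 to 469 FPKM in sham SGCs at 14 days. None of these 11 was called at either time, with median differences of 0.11 and 0.23, and none was at 0 in a whole group. Their differences ran from −0.32 to 1.33 at 3 days and from −0.21 to 1.42 at 14 days. At each time 2 of the 11 had an unadjusted limma p under 0.05, beside 1269 and 718 of all 13924 genes. Subtype markers had medians of the other sign: −0.98 and −0.27 for the 4 tested nociceptor markers and −0.24 and −0.04 for the 5 markers of large-diameter neurons, at 3 and 14 days, with none called. The 6 endothelial markers summed to 168 to 331 FPKM in ligated and 141 to 228 FPKM in sham SGCs at 3 days, and to 199 to 288 FPKM in ligated and 116 to 243 FPKM in sham SGCs at 14 days. The 8 macrophage markers summed to 1.69 to 13.2 FPKM in ligated and 4.73 to 8.86 FPKM in sham SGCs at 3 days, and to 6.75 to 23.5 FPKM in ligated and 1.94 to 10.9 FPKM in sham SGCs at 14 days. C1qa was at 0 in sham SGCs at 3 days, and Csf1r and Aif1 in sham SGCs at 14 days. The part of endothelial and macrophage RNA in the Cacna2d1 result was not tested.

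Cacna2d1 was also set against the neuron markers, in a ratio chosen after the values had been seen. The ratio does not measure the part of neuronal RNA in the Cacna2d1 result, which was not tested. Per 100 FPKM of neuron markers, Cacna2d1 had 2.87 ± 0.490 FPKM in ligated and 1.47 ± 0.262 FPKM in sham SGCs at 3 days (SD, n = 4 each). The groups did not overlap (exact permutation test, two-sided p = 0.0286, the smallest that 4 against 4 allows). At 14 days the ratio was 2.23 ± 0.484 in ligated and 1.5 ± 0.706 in sham SGCs, with overlap (exact permutation test, two-sided p = 0.143). In naive mice it was 1.32 ± 0.258 in SGCs and 0.332 ± 0.0469 in DRGs, and all 4 SGC libraries lay above all 4 DRG libraries. Without Stmn2 in the denominator the log2 difference in the ratio was 1.40 at 3 days, against 0.97 with it, and 0.98 at 14 days, against 0.67 with it. With the nociceptor markers as denominator the log2 difference was 2.67 at 3 days and 1.88 at 14 days, and the groups overlapped at neither time (exact permutation test, two-sided p = 0.0286 each). The sums in this denominator had medians of 63.3 FPKM in ligated and 165 FPKM in sham SGCs at 3 days. At 14 days the 7 markers had median sums of 138 FPKM in ligated and 147 FPKM in sham SGCs and P2rx3 was at 0 in both groups.

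**Figure D4:**
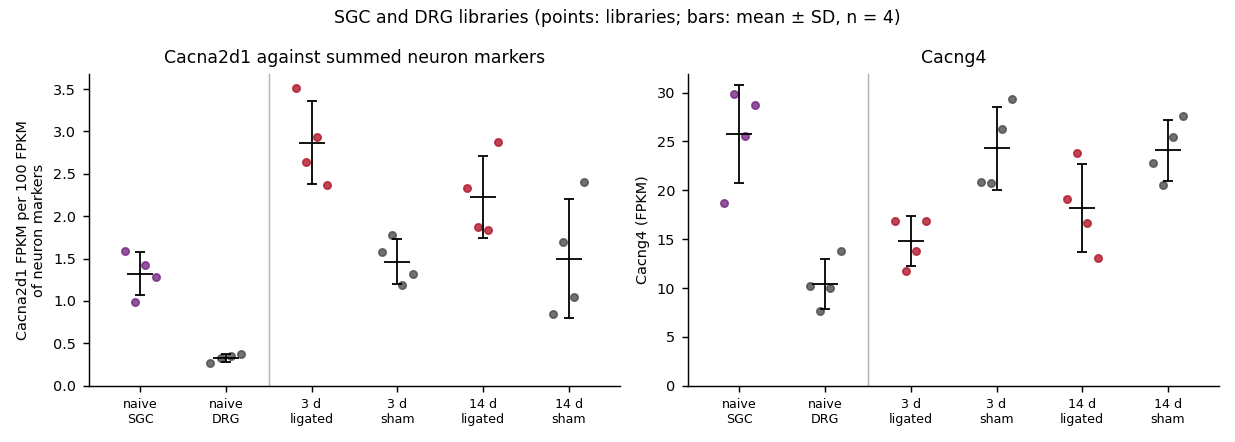
Left, Cacna2d1 FPKM per 100 FPKM of summed neuron markers; right, Cacng4 in FPKM; both y axes start at 0, points are libraries of naive SGCs, naive DRGs and the 4 SGC surgery groups, and bars are mean ± SD (n = 4). The ratio lies at 2.37 to 3.51 in ligated and 1.19 to 1.78 in sham SGCs at 3 days, and Cacng4 at 11.7 to 16.9 FPKM in ligated and 20.8 to 29.4 FPKM in sham SGCs at 3 days.

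Cacng4, the auxiliary gene that was higher in naive SGCs than in DRGs, had lower means after ligation at both times, without passing the test. It had 16.9, 11.7, 13.8 and 16.9 FPKM in ligated SGCs, against 20.9, 20.8, 26.3 and 29.4 FPKM in sham SGCs at 3 days, without overlap. Its difference of −0.68 ± 0.19 (SE) did not pass across all genes (limma adjusted p = 0.301). Its log2 fold change at 3 days was −0.70 with an adjusted p of 0.0594 by the authors' deposited table. At 14 days it averaged 18.2 ± 4.53 FPKM in ligated and 24.1 ± 3.09 FPKM in sham SGCs (SD, n = 4 each), with overlap and a difference of −0.41 (limma adjusted p = 0.967). None of the 13 regulators or 8 release genes tested in SGCs was called at either time. Of 10 injury response genes, listed with earlier results known, 5 were higher at 3 days, when 0.0646% of all genes were called. At 14 days 0 were called, beside 0.00718% of all genes, and 8 of the 10 had an unadjusted limma p under 0.05. The authors' deposited tables called 7 of the 10 higher at each time. The called share of all genes there was 1.01% at 3 days and 1.05% at 14 days.

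Over the 16 SGC libraries after surgery, the genes whose log2(FPKM + 1) followed Cacna2d1 most closely were Stmn2 (Pearson r = 0.95, Spearman rho = 0.94), Syt4 (r = 0.91), Mllt11 (r = 0.90), S100a10 (r = 0.88) and Tubb2b (r = 0.87). These are descriptions without a test, since libraries share operation and time and the content of neuronal RNA. Stmn2, a growth-associated tubulin binder of neurons, averaged 259 ± 81.3 FPKM in ligated and 113 ± 68.7 FPKM in sham SGCs at 3 days, and 250.5 ± 91.4 FPKM in ligated and 103 ± 27.2 FPKM in sham SGCs at 14 days (SD, n = 4 each). Among the subunits the closest to Cacna2d1 was Cacna1b (r = 0.57), while r was −0.00673 for Cacna2d2, −0.0109 for Cacna1h and −0.00455 for Cacnb4.

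**Figure D5:**
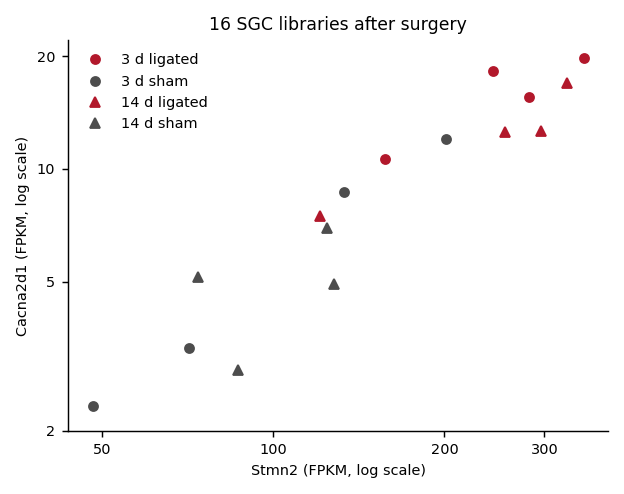
Cacna2d1 against Stmn2 in FPKM, both axes logarithmic, in the 16 SGC libraries after surgery; red points are ligated, grey points sham, circles 3 days and triangles 14 days. The libraries lie along a single band (Pearson r = 0.95 on log2(FPKM + 1)), with ligated libraries mostly at its upper end.

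In isolated neurons 0 of the 10 subunits passed after ligation. At 8 days Cacna2d1 had 19.3, 17.5 and 34.3 FPKM in ligated males, against 21.4, 14.0 and 27.5 FPKM in sham males. In females it had 18.1, 27.6 and 25.1 FPKM after ligation, against 16.1, 20.3 and 20.7 FPKM after sham operation. The groups overlapped in both sexes. As the mean of both sexes its difference was 0.22 ± 0.29 (SE), with a 95% confidence interval of −0.38 to 0.82 (limma adjusted p = 0.999). The authors' deposited table gave a log2 fold change of 0.33 with an unadjusted p of 0.0402 and an adjusted p of 0.423. Per 100 FPKM of neuron markers Cacna2d1 was at 0.300 ± 0.156 in ligated and 0.267 ± 0.104 in sham males, and 0.275 ± 0.0773 in ligated and 0.224 ± 0.0418 in sham females (SD, n = 3 each).

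Over all 12145 genes 0.28% were called in the mean of both sexes, all higher after ligation. Of the subunits 1 had an unadjusted limma p under 0.05, beside 435 of all genes, and the authors' deposited table called 0, beside 1.7% of 13926 genes. The estimate was below 0 for 9 of the 10, with a median of −0.16 against −0.04 over all genes. Of all genes, 43.1% had an estimate above 0. Of the 10 injury response genes, listed with earlier results known, 7 were higher. The subunit with the unadjusted p under 0.05 was Cacna1a, with 0.252, 1.25 and 0.563 FPKM in ligated males, against 6.09, 0.800 and 2.42 FPKM in sham males. In females it had 0.690, 0.797 and 2.11 FPKM after ligation, against 1.18, 4.19 and 5.02 FPKM after sham operation. The groups overlapped in each sex, and the mean difference was −1.03 ± 0.45 (SE; limma adjusted p = 0.999). Cacna1a had a log2 fold change of −0.39 with an adjusted p of 0.625 in the authors' deposited table.

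The mean differences of the remaining subunits in neurons were all below 0, and their 95% confidence intervals all included 0. Those of Cacna2d2 and Cacna2d3 were −0.12 and −0.14, those of Cacna1b, Cacna1c and Cacna1h −0.16, −0.25 and −0.43, and those of Cacnb3 and Cacnb4 −0.16 and −0.10. For Cacnb4 the 95% confidence interval was the narrowest, −0.44 to 0.24. Cacnb1 was listed at 0 in 3 of 6 ligated and 2 of 6 sham libraries and at 6.48 to 13.4 FPKM in the other libraries of these groups, and its difference of −0.54 ± 0.87 (SE) rests on those zeros.

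By sex, 0 of 10 subunits passed in males, when 0.00823% of all genes were called, and 0 in females, when 0.148% were. No subunit had an unadjusted limma p under 0.05 in either sex, and the authors' tables do not split the sexes. Cacna2d1 differed by 0.16 in males and by 0.29 in females, and Cacna1a by −1.10 and −0.95. In males Cacna2d2, Cacnb1 and Cacnb4 differed by −0.65, −1.04 and −0.02, and in females by 0.41, −0.03 and −0.18. Cacna2d3 and Cacnb3 differed by −0.56 and −0.36 in males and by 0.27 and 0.03 in females. The ligation effect in males minus that in females was −0.13 ± 0.58 (SE) for Cacna2d1 and reached −1.06 ± 0.65 for Cacna2d2. None of the 10 passed the limma test of that difference, with 0 at an unadjusted p under 0.05, and 0% of all genes did.

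On the ligated side Cacna2d1 had 34.6, 24.0, 21.7 and 34.0 FPKM, against 13.3, 53.7, 13.4 and 21.1 FPKM on the opposite side of ligated mice. All 4 ligated-side libraries lay above 3 of the opposite-side libraries, and the remaining opposite-side library lay above all of them. The difference was 0.37 ± 0.35 (SE; limma adjusted p = 0.753), and 0.80 without that library (adjusted p = 0.379). The same library had the highest value of its group for 9 of the 10 subunits, among them Cacna1c at 10.2 FPKM and Cacnb1 at 26.9 FPKM. Its 11 neuron markers summed to 7952 FPKM, against 6807 to 7865 FPKM in the other 3 libraries, and its 4 myelin markers to 725 FPKM, against 1467 to 1733 FPKM. The part of these differences in its subunit values was not tested.

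None of the 10 subunits passed between the sides, when 0.667% of all genes were called, and none had an unadjusted limma p under 0.05; the authors' tables name no such comparison. Cacna2d2 had 1.32, 2.70, 0.794 and 1.86 FPKM on the ligated side, against 3.00, 6.62, 1.71 and 3.92 FPKM on the opposite side, a difference of −0.80 ± 0.40 (SE; limma adjusted p = 0.528) with overlap. The means of Cacna1a were lower in the sexed ligated neurons than in their shams, without passing the test. Between the sides Cacna1a differed by −0.20, with 2.30 to 12.3 FPKM on the ligated and 1.69 to 13.2 FPKM on the opposite side. The other differences were −0.14 for Cacna2d3, −0.10 for Cacna1b, −0.30 for Cacna1c, −0.12 for Cacna1h, −1.27 for Cacnb1, −0.03 for Cacnb3 and 0.02 for Cacnb4. Without the high library those of Cacna1a, Cacna1b, Cacna1c, Cacna1h and Cacnb3 moved above 0, to 0.12, 0.17, 0.13, 0.07 and 0.16.

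The 3 subunits with the highest means were the same in all 6 neuron groups. Cacnb3 led in each, at means of 98.7 to 128 FPKM, followed by Cacna2d1 at 19.0 to 28.6 FPKM and Cacnb4 at 13.9 to 17.1 FPKM. Cacna1b was the pore gene with the highest mean in all 6 groups, at 8.61 to 11.7 FPKM, while Cacna1c, Cacna1h, Cacna2d2 and Cacna2d3 averaged 1.05 to 5.16 FPKM. The place of Cacna1a differed: it was the lowest of the 10 in ligated males, at 0.689 FPKM, and in ligated females, at 1.2 FPKM, and 6th on the ligated side, at 6.15 FPKM, and on the opposite side, at 7.73 FPKM. Cacnb1, with its listed zeros, averaged 3.3 to 15.2 FPKM. For Cacna2d1 the order of means ran from ligated-side neurons at 28.6 ± 6.71 FPKM to sham females at 19.0 ± 2.56 FPKM, and every neighbouring pair overlapped. Over the 20 neuron libraries the genes most like Cacna2d1 were Smarca5 (Pearson r = 0.87), Abca1 (r = 0.86), Psip1 (r = 0.86), Ncoa7 (r = 0.86) and Basp1 (r = 0.85). Stmn2 was not among those 5 in neurons, and Cacna1b was again the closest subunit (r = 0.65). These values carry no test, and the high opposite-side library is 1 of the 20.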

How the data were processed

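Bulk RNA-seq of 44 libraries in 12 groups was deposited as 3 tables of FPKM. The authors made the FPKM and the DESeq2 tables with STAR, SAMtools, Cufflinks and DESeq2 on mm10, per the submitters' processing notes, which give no versions or order. The naive FPKM table and 1 of the 4 tables that the authors made with DESeq2 were deposited with decimal commas. The tables that the authors made with DESeq2 hold log2 fold changes, p-values and mean normalized counts (a signal per gene, deposited without per-library counts). The direction of these log2 values was read from the differences computed here. Of the genes called there and tested here, 121 of 122 had the opposite sign at 3 days. At 14 days 152 of 153 did, and in neurons 223 of 223. The deposited sign was therefore taken as positive for sham over ligated. The named comparisons are given here as ligated over sham, and their direction is no independent check. Counts per library were not among the files used, so depth, its intervals and strand handling are unknown, and a count test could not be run.

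Lines sharing a gene were joined into 45882 genes (naive, SGC) and 12170 genes (neurons), and no library pair was identical. Genes that reached 1 FPKM in at least the number of libraries of the smallest group were tested as log2(FPKM + 1) with limma 3.58.1 (trend) in R 4.3.3, all groups of a table in 1 fit, with Benjamini-Hochberg adjustment over all genes and a threshold of 0.05. This was done for 9 comparisons. Tables were scaled separately, so none was tested against another. The procedure was tested on simulated data. Summed marker levels and ratios were computed in Python 3.11.15 with pandas 2.3.3. The Cacna2d1 ratios were tested with exact permutation tests in SciPy 1.17.1, and the marker sums were not tested. Figures were drawn with Matplotlib 3.10.9. Alternatives were a pseudocount of 0.1, no filter, quantile normalization, only the groups compared, the replicate number as a block and each library left out. The subunits, the pathway and marker lists and the tests were chosen with earlier results of these data known. Of each pathway list, up to 6 genes a comparison that passed were named, by size of difference (some that this rule names are not reported here), and of all genes the 5 most like Cacna2d1 in each of 2 tables.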

Additional observations from a re-analysis of the deposited data

Results flagged for a closer look

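In 80 sets of 4 libraries, each 1 of the subunits or Cacng4 in 1 group, the highest and the lowest library were held against Dixon's 95% critical value of 0.829. In 7 sets a library stood farther from the rest than that, each time the highest. For independent normal values chance flags about 1 in 20 sets, counting both ends. The 80 sets share libraries and FPKM need not be normal, so this rate is only a rough guide. A further 6 sets, of Cacnb1, are at 0 throughout and were left out of the 80. In naive DRGs this held for Cacna2d2 at 3.04 FPKM (the other 3 at 2.44 to 2.54) and for Cacnb3 at 19.3 FPKM (17.2 in the other 3). In ligated SGCs at 3 days the same library had Cacna2d3 at 2.29 FPKM (others 0.161 to 0.437) and Cacna1c at 3.15 FPKM (others 0.858 to 1.24). In neurons of the opposite side the same library had Cacna1c at 10.2 FPKM (others 1.67 to 2.87), Cacna1h at 5.58 FPKM (others 2.67 to 3.04) and Cacnb1 at 26.9 FPKM (others 10.6 to 12.3).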

How the results depend on the processing

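Over 122 alternatives the count of subunits called stayed at 0 in the 8 comparisons where it was 0. In the naive comparison, where it was 8, the alternatives were held only to a tolerance around 8, and all lay within it. Of 360 recomputed differences of named genes 355 kept their direction and their side of the threshold, as did 640 of 700 with 1 library left out. The ligated minus sham difference of Cacna2d1 stayed above 0 in SGCs in every alternative run, at 1.34 to 1.53 (1.03 to 1.68 with a library left out) at 3 days and at 1.16 to 1.31 (0.97 to 1.36) at 14 days. Changes of sign were confined to uncalled differences, and their cause was not tested. A pseudocount of 0.1 turned Cacna1b at 3 days to 0.05. Quantile normalization turned it to 0.066, Cacna2d3 at 14 days to 0.004, Cacnb4 in males to 0.047 and Cacnb3 in females to −0.004.

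With a library left out, sign changes gave these ranges. In SGCs at 3 days Cacna2d2 ran −0.447 to 0.075, Cacna1b −0.206 to 0.232 and Cacna1c −0.145 to 0.290. At 14 days Cacna2d3 ran −0.212 to 0.032, Cacna1h −0.001 to 0.368, Cacnb3 −0.156 to 0.280 and Cacnb4 −0.180 to 0.097, and Cacna2d1 at 14 days minus 3 days −0.523 to 0.132. In neurons of both sexes Cacna2d2 ran −0.305 to 0.119, Cacna2d3 −0.396 to 0.215, Cacnb1 −1.11 to 0.029 and Cacnb4 −0.180 to 0.004. In males Cacna2d1 ran −0.130 to 0.369, Cacna1c −0.473 to 0.015 and Cacnb4 −0.181 to 0.189. In females Cacna2d3 ran −0.231 to 0.991, Cacna1b −0.311 to 0.052, Cacna1c −0.494 to 0.054, Cacna1h −0.499 to 0.142, Cacnb1 −1.179 to 1.099 and Cacnb3 −0.057 to 0.107, and Cacna2d1 in males minus females −0.416 to 0.083. Between the sides Cacna2d3 ran −0.468 to 0.095, Cacna1a −0.679 to 0.120, Cacna1b −0.329 to 0.168, Cacna1c −0.553 to 0.134, Cacna1h −0.304 to 0.099, Cacnb3 −0.217 to 0.205 and Cacnb4 −0.077 to 0.105.

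Per neuron marker, the Cacna2d1 difference at 3 days was 0.87 to 1.07 with a library left out, where the smallest p possible is 0.0571. At 14 days it was 0.67, 0.98 without Stmn2 and 1.88 with nociceptor markers, denominators added after the data were seen. With the replicate number as a block the difference of Cacna2d1 was −1.99 in the naive comparison, 1.35 at 3 days and 1.16 at 14 days, and 8, 0 and 0 subunits were called. Same-numbered libraries correlated at −0.076 to 0.186 in their deviations. No label says whether the numbers pair libraries, and so few correlations cannot decide it. No paired analysis was possible in neurons because the columns carry no replicate numbers. Over all genes, the number called at 3 days was 9, against 14 with a pseudocount of 0.1, 4 with only the groups compared, 1 with no filter and 1 with the block. At 14 days it was 1, against 6 with only the groups compared, and between the sides it was 81, against 36. Without read totals, the precision of low values is unknown.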

Other observations

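Another authors' deposited table of differential expression names no comparison, so its direction is not given a meaning here. In that authors' deposited table Cacna2d1 had a log2 fold change of −2.42 with an adjusted p of 6.72e-17, rank 6 of 18656 genes, of which 3.01% were past 0.05. No other subunit of the 10 was past 0.05 there. The nearest in the authors' deposited table were Cacna1c at −0.93 with an adjusted p of 0.0755 and Cacnb3 at −1.54 with an adjusted p of 0.0777.

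Stac, an adaptor of L-type channels, was also past 0.05 in that authors' deposited table, at −4.08 with an adjusted p of 0.00974. It was chosen here after its value was seen. In the authors' deposited tables with named comparisons Stac was at 0.97 at 3 days (adjusted p = 0.886) and 1.62 at 14 days (adjusted p = 0.209) in SGCs, and at 0.50 in neurons (adjusted p = 0.08), ligated over sham.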
